A study of Homo sapiens with 12 samples.

Results

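The genes of the pyruvate dehydrogenase complex and the citric acid cycle, with the enzymes that feed carbon into or out of the cycle at pyruvate and oxaloacetate, were followed in K562 cells, a human line established from chronic myelogenous leukaemia. The list held 33 gene symbols, chosen by name. The count table of 17786 genes had a row for 32 of them (ME3 had no row), and 31 of the 13598 genes with enough counts for a test were on the list. PDK2 was too low to be tested. Messenger RNA had been sequenced from 12 libraries: 4 of untreated cells, 4 of cells given 2 mM alpha-ketobutyrate (AKB) and 4 of cells given 2 mM pyruvate, both for 24 h. All groups were grown in RPMI-1640 with 5% fetal bovine serum and 2 mM glutamine, per the labels. AKB and pyruvate are both 2-oxo acids, AKB having an additional methylene group, and both can take electrons from NADH through lactate dehydrogenase. Whether the libraries within a group are separate cultures is not stated in the labels, and a p-value therefore reflects the spread among these particular libraries, which may be technical.

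As background, the pyruvate dehydrogenase complex in the mitochondrial matrix turns pyruvate into acetyl-CoA, with transfer of electrons to NAD+. Its kinases (PDK) switch the complex off by phosphorylation, and its phosphatases (PDP) switch it on again. The citric acid cycle then oxidises acetyl-CoA in steps that hand electrons to NAD+ or to ubiquinone. Pyruvate carboxylase refills the cycle with oxaloacetate, while PEP carboxykinase and the malic enzymes draw oxaloacetate or malate back out of it. The mitochondrial PEP carboxykinase gene PCK2 is also known as a target of the ATF4 branch of the amino acid and stress response.

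For most of these genes no difference was detected beyond the spread that the 3 groups share in the test. PCK2 fell to 0.65 of its untreated level with AKB and to 0.60 with pyruvate. By edgeR's quasi-likelihood test the AKB call ended with a replicate block (adjusted p = 0.0567). The pyruvate call ended in a fit to the 8 libraries of that comparison alone (adjusted p = 0.117). Both calls also ended when certain single libraries were left out. IDH2, which encodes the mitochondrial NADP-linked isocitrate dehydrogenase, rose 1.45-fold with AKB. IDH3G, which encodes a regulatory subunit of the NAD-linked isocitrate dehydrogenase, was called higher with pyruvate at an adjusted p of 0.049 (edgeR's quasi-likelihood test), a call that ended without pyruvate replicates 3 and 4. In bulk RNA a change in the share of cells that express a gene and a change in the RNA per cell cannot be told apart. Calls were made where the adjusted p was below 0.05, with Benjamini-Hochberg adjustment across the 13598 genes tested. By that rule 2 of 31 tested genes on the list (6.45%) were called with AKB, against 1.97% of all genes tested, with 1 higher (1.37% of all genes) and 1 lower (0.603%). With pyruvate it was also 2 of 31 (6.45%), against 1.95%, with 1 higher (1.02%) and 1 lower (0.927%). Between AKB and pyruvate 1 of 31 was called, lower with AKB, against 3.13% of all genes (1.94% higher and 1.19% lower). Counts of 1 or 2 genes are too small to read a difference from the background into them. In a fit to the 8 AKB and untreated libraries alone, 5 of 31 genes were called, against 10.1% of all genes. With AKB, IDH2 and ME1 were higher there, and PCK2, IDH3A and SDHD lower. The like fits gave 0 calls with pyruvate (0.12% of all genes) and 0 between the acids (0.0449%).

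Total counts per library ran from 15353200 to 21301073, and levels are given as CPM, a count scaled to the TMM-adjusted library size. The K562 cells had the erythroid profile of the line: 8 markers (HBG1, HBG2, HBE1, TFRC, GATA1, TAL1, KLF1 and LMO2) summed to 13240 to 15040 CPM in untreated libraries, 14470 to 16390 with AKB and 10990 to 12810 with pyruvate. The sum of the T cell markers CD3D, CD3E and CD3G was at most 3.848 CPM and the B cell marker CD79A was at most 0.1929 CPM in any library. The fibroblast markers COL1A1, COL1A2 and COL3A1 summed to 7.384 to 11.6 CPM, and of the epithelial pair EPCAM was present (up to 106.1 CPM) and CDH1 nearly absent (at most 0.2413). The pyruvate libraries summed to 12190, 12810, 11410 and 10990 CPM in replicates 1 to 4, below every untreated library with or without replicates 3 and 4. The globin genes and TFRC carried this sum, while the means of the erythroid transcription factors KLF1 and GATA1 were higher with pyruvate. KLF1 read 83.85, 78.77, 186.6 and 190.1 CPM with pyruvate and GATA1 142, 122.9, 248.8 and 241.1, against 70.87 to 88.97 and 126.9 to 169.6 in untreated libraries, so that replicates 3 and 4 alone lay above. The part of these markers in the results below was not tested. Pyruvate replicates 3 and 4 stood apart from the other 10 libraries. Their log2 CPM rose with the GC content of the transcript by 0.331 and 0.354 per 10 percentage points, against −0.153 to 0.014 in the others, and they had the largest totals (19891231 and 21301073 against at most 18420192). Pyruvate differences of single genes that are printed below and that changed sign or moved over 1.5 times without these libraries are therefore given both ways.

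Per kb of principal transcript, the untreated levels spanned from 0.0709 ± 0.0342 CPM per kb for PDK2 to 173 ± 2.93 for FH (SD, n = 4). FH, encoding fumarase, was followed by CS, encoding citrate synthase, at 145 ± 3.69 CPM per kb, and by SDHD and SDHB, subunits of succinate dehydrogenase, at 128 ± 7.11 and 114 ± 3.78. Neighbours such as SDHA (85 ± 4.17) and SUCLG1 (84.1 ± 1.47), or PCK2, SUCLA2 and OGDH (24.9, 24.9 and 24.5), did not differ beyond their spread. The order depends on the transcript taken: PDHB stood at 45.6 CPM per kb of its principal and 15.6 of its longest transcript. The catalytic core of pyruvate dehydrogenase lay between 22.8 CPM per kb (PDHX) and 90.3 (DLD), and DLD also serves other 2-oxo acid dehydrogenases. The kinases and PDP1 lay lowest, with PDK1 at 2.12, PDK3 at 1.36 and PDP1 at 0.651 CPM per kb, while the other phosphatase genes, PDP2 at 8.74 and PDPR at 16.3, lay above ME2 at 6.24. Of the kinases, PDK1 made up 59.7% ± 1.4 of the summed CPM per kb of PDK1, PDK2 and PDK3 in untreated cells, PDK3 38.3% ± 2.3 and PDK2 2.01% ± 0.99 (SD, n = 4). These shares also depend on the transcript, as PDK3 stood at 0.555 CPM per kb of its longest transcript and PDK1 at 2.12. The level of PDK1 was divided by a transcript of 14193 bases. Before division by length its untreated mean was 30.12 CPM, against 2.618 for PDK3.

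**Figure D1:**
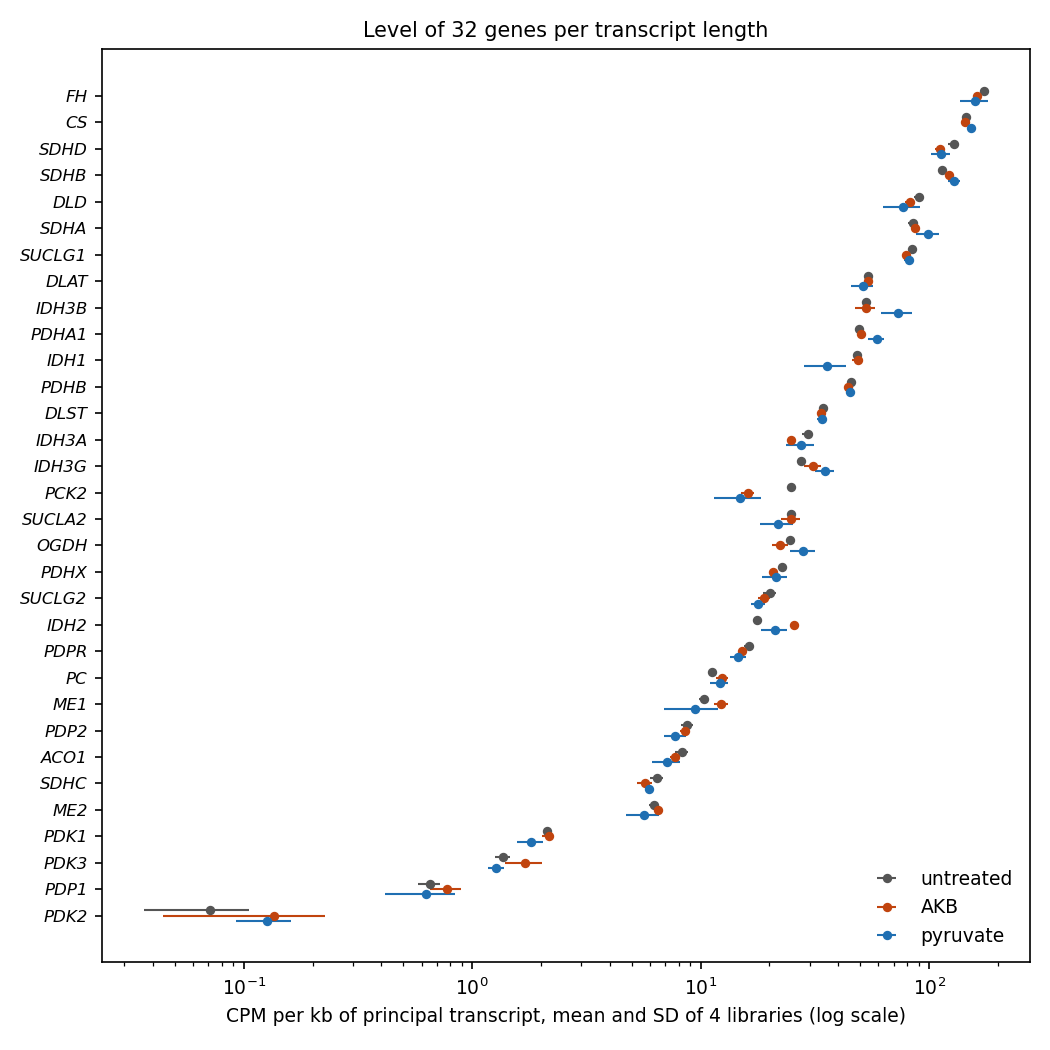
Level of the 32 genes per kb of principal transcript (log axis), as mean and SD of 4 libraries for untreated, AKB and pyruvate. The genes spread from PDK2 at 0.0709 to FH at 173 CPM per kb in untreated cells, and on this axis the treated means lie farthest from the untreated mean for the untested PDK2 (0.136 with AKB and 0.127 with pyruvate).

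**Figure D2:**
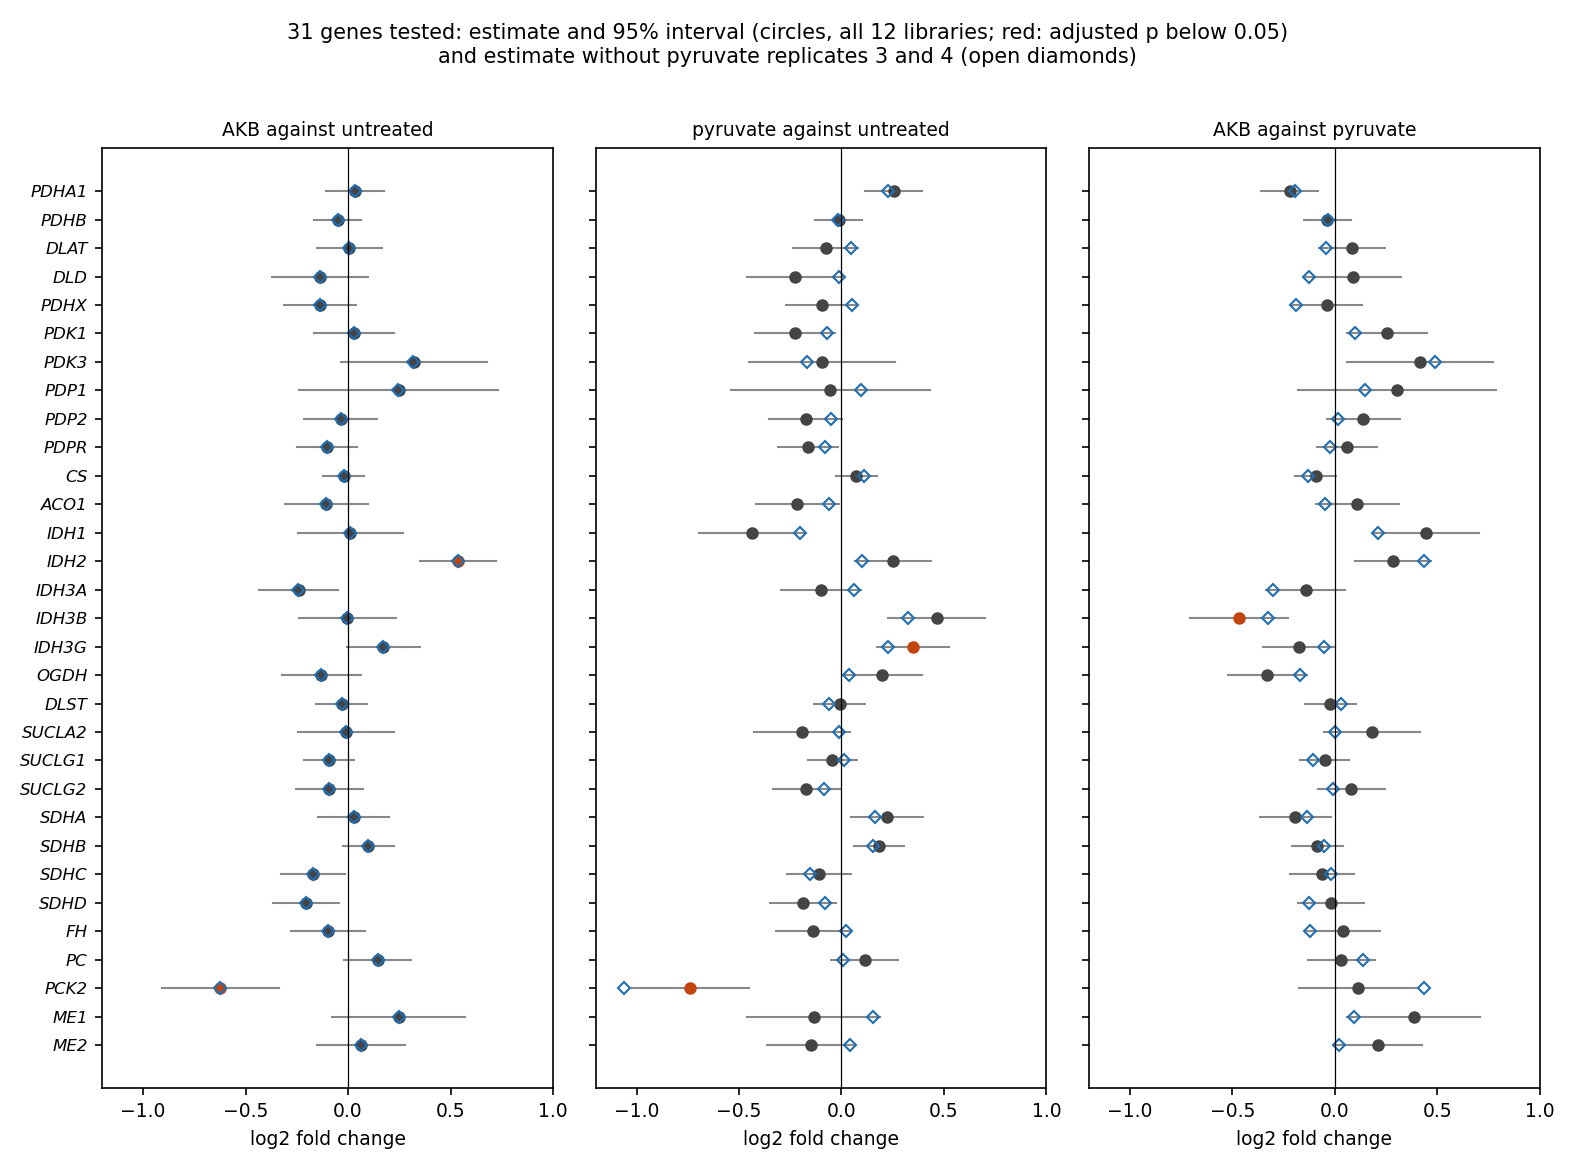
Log2 fold change of the 31 tested genes in each comparison with its 95% interval (circles, all 12 libraries, red where the adjusted p was below 0.05) and the estimate without pyruvate replicates 3 and 4 (open diamonds). PCK2 and IDH2 stand apart with AKB at −0.62 and 0.54, and for pyruvate the diamonds of most genes lie closer to 0 than the circles, with PCK2 at −1.06 among the exceptions.

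Over the 31 tested genes the log2 fold change with AKB ran from −0.62 to 0.54, with 13 estimates above 0 and 18 below, and a median of −0.021 against 0.0061 over all genes tested. With pyruvate it ran from −0.74 to 0.46, with 9 above 0 and 22 below, and a median of −0.096 against −0.0082. This balance turned without pyruvate replicates 3 and 4 (17 above 0 and 14 below, median 0.013) and with a correction for GC content (18 above and 13 below, median 0.019). The 4 AKB libraries lay wholly above the 4 untreated ones for 4 of the 31 genes and wholly below for 7, where 8.74% and 8.41% of all genes did so. With pyruvate this held for 4 genes above and 3 below, against 4.89% and 6% of all genes. Summed over the list, the level was 3562 ± 57.9 CPM in untreated cells, 3447 ± 61.5 with AKB and 3490 ± 197 with pyruvate (SD, n = 4), where replicates 1 to 4 read 3506, 3756, 3405 and 3294. The untreated and AKB sums overlapped, from 3500 to 3640 and from 3391 to 3516 CPM.

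The pyruvate dehydrogenase core showed no called change with either acid. PDHA1 encodes the alpha subunit of E1, the subunit that the kinases phosphorylate. Its level was 163.2, 166.5, 155.3 and 168.2 CPM in untreated replicates 1 to 4, 166.3, 163.8, 163.3 and 175.7 with AKB, and 173, 209.2, 201.7 and 195.6 with pyruvate. The AKB libraries overlapped the untreated ones, while all 4 pyruvate libraries lay above them, and the lowest of these was pyruvate 1. The log2 difference was 0.035 ± 0.0646 (SE) with AKB (adjusted p = 0.885) and 0.26 ± 0.0646 with pyruvate (adjusted p = 0.0591), which missed the threshold. The pyruvate difference was 0.23 without pyruvate replicates 3 and 4, with an adjusted p of 0.164. With a correction for GC content it was 0.30 and the adjusted p 0.0129, and over all alternatives of processing the adjusted p ran from 0.00297 to 0.182.

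PDHX, encoding the E3-binding protein, was the only core gene whose AKB and untreated libraries did not overlap. It measured 53.07, 55.15, 55.64 and 53.62 CPM in untreated cells, 48.8, 49.78, 49.95 and 49.27 with AKB, and 57.2, 55.5, 45 and 45.82 with pyruvate. The AKB libraries were the lower ones, at a log2 difference of −0.14 ± 0.0801 (adjusted p = 0.515 by edgeR's quasi-likelihood test). The pyruvate libraries split, with replicates 3 and 4 below every other library and replicates 1 and 2 not, and the estimate was −0.096 there, and 0.052 without replicates 3 and 4. Without replicates 3 and 4 the adjusted p of the AKB difference was 0.05, just inside the threshold before rounding. Between AKB and pyruvate the difference was −0.040 with all libraries (adjusted p = 0.778) and −0.19 without that pair (adjusted p = 0.0491). Across all alternatives the adjusted p ran from 0.05 to 0.741 for the AKB difference and from 0.0454 to 0.969 between the acids. The other core genes, PDHB (E1 beta), DLAT (the E2 acetyltransferase) and DLD (the E3 lipoamide dehydrogenase), had AKB differences of −0.050, 0.0062 and −0.14 and pyruvate differences of −0.013, −0.077 and −0.23, none of them called. Without replicates 3 and 4 the pyruvate difference was −0.014 for DLD and 0.049 for DLAT.

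None of the kinases and phosphatases was called in any comparison. PDK1, the kinase gene with the highest level here, measured 29.48, 30.6, 29.99 and 30.4 CPM in untreated cells, 30.67, 30.14, 28.75 and 33.22 with AKB, and 28.96, 28.32, 22.68 and 23 with pyruvate. Its AKB libraries overlapped the untreated ones and its pyruvate libraries lay below them, with most of the distance in replicates 3 and 4. The log2 difference with pyruvate was −0.23 ± 0.09 (adjusted p = 0.132) and −0.072 without those replicates (adjusted p = 0.698, with a range of 0.045 to 0.698 over all alternatives). PDK3 stayed between 2.413 and 2.811 CPM in untreated cells and read 3.215, 3.829, 2.46 and 3.581 with AKB and 2.487, 2.165, 2.525 and 2.613 with pyruvate. Its AKB difference of 0.32 had a 95% interval from −0.036 to 0.68 and an adjusted p of 0.447. PDK2 was between 0.1224 and 0.937 CPM in all 12 libraries and its level was not tested.

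Of the phosphatases, PDP2 held 93.1% ± 0.54 of the summed CPM per kb of PDP1 and PDP2 in untreated cells, 91.7% ± 0.86 with AKB and 92.5% ± 2.2 with pyruvate (SD, n = 4). PDP1 stayed between 1.97 and 3.908 CPM, and its interval with AKB, from −0.24 to 0.73, was the widest of the tested genes on the list. PDP2 and PDPR, the regulatory subunit of the phosphatase, had AKB differences of −0.035 and −0.10 and pyruvate differences of −0.17 and −0.16, which were −0.052 and −0.083 without pyruvate replicates 3 and 4. PDPR has near-identical copies elsewhere on its chromosome, so its counts are uncertain.

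Citrate synthase, aconitase 1 and fumarase gave no call. CS measured 439.8, 435.8, 415.8 and 436.8 CPM in untreated cells, 431.2, 430, 413.3 and 428.8 with AKB, and 455.3, 475.7, 450.6 and 436.7 with pyruvate. The untreated and AKB values overlapped, at a log2 difference of −0.021 with a 95% interval from −0.12 to 0.078. The pyruvate values lay mostly above, at 0.073 ± 0.0457 (adjusted p = 0.286). FH read 311.7, 315.1, 303.6 and 314.4 CPM in untreated cells, 294, 282.1, 296.7 and 291.9 with AKB, and 308.3, 324.3, 260.4 and 239.2 with pyruvate. All 4 AKB values of FH were below the untreated ones, by a difference of −0.10 ± 0.0833 that was not called (adjusted p = 0.696). Its pyruvate difference was −0.14, and 0.024 without replicates 3 and 4. ACO1, which encodes the cytosolic aconitase that doubles as an iron-responsive RNA-binding protein, had uncalled differences of −0.11 with AKB and −0.22 with pyruvate, the latter −0.060 without replicates 3 and 4.

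Each of the 3 comparisons called 1 of the 5 isocitrate dehydrogenase genes: IDH2 with AKB, IDH3G with pyruvate and IDH3B between the acids. Of all genes tested, 1.97%, 1.95% and 3.13% were called there, and a count of 1 is too small to set against these shares. The IDH3G and IDH3B calls ended in several alternatives, given below. IDH2 (ENSG00000182054, GRCh38 chromosome 15, 90083045 to 90102504, minus strand) read 46.79, 47.31, 45.71 and 50.91 CPM in untreated cells, 64.68, 69.73, 70.8 and 71.25 with AKB, and 48.56, 53.69, 64.9 and 59.91 with pyruvate. All AKB libraries lay above all untreated ones, while the pyruvate libraries overlapped them. The log2 difference with AKB was 0.54 ± 0.0856, with a 95% interval from 0.35 to 0.72 and an adjusted p of 0.00854 by edgeR's quasi-likelihood test. This call held in every alternative run, with adjusted p values from 4.64e-06 to 0.042. The pyruvate difference was 0.25 ± 0.0855 (adjusted p = 0.101), and 0.10 without replicates 3 and 4.

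The difference between AKB and pyruvate for IDH2 was itself 0.28 ± 0.0852 (adjusted p = 0.0792). Without pyruvate replicates 3 and 4 it was 0.43 with an adjusted p of 0.00967, and over all alternatives the adjusted p ran from 0.00063 to 0.236. IDH1, the cytosolic and peroxisomal NADP-linked enzyme, had lower values in the pyruvate group. It measured 120.1, 121, 119.9 and 111.1 CPM in untreated cells, 126, 110.4, 118.4 and 121.2 with AKB, and 99.36, 105.9, 75.31 and 68.96 with pyruvate. The pyruvate libraries all lay below the other 8, with replicates 3 and 4 the lowest. The log2 difference with pyruvate was −0.43 ± 0.119 and missed the threshold (adjusted p = 0.0687). It was −0.20 without replicates 3 and 4 (adjusted p = 0.164) and −0.33 with the GC correction (adjusted p = 0.013), within a range of 0.0104 to 0.192 over all alternatives. IDH2 made up 26.8% ± 1.7 of the summed CPM per kb of IDH1 and IDH2 in untreated cells, 34.5% ± 2 with AKB and 37.5% ± 7.4 with pyruvate (SD, n = 4), and this share ran from 25.7% to 29.3%, from 31.8% to 36.4% and from 30.7% to 44%, so that neither treated group overlapped the untreated one. In pyruvate replicates 1 to 4 the share was 30.69%, 31.47%, 43.85% and 44.05%.

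The NAD-linked isocitrate dehydrogenase is built from the catalytic subunit IDH3A and the subunits IDH3B and IDH3G, and the 3 genes had different patterns over the libraries. IDH3A read 127.2, 121.7, 124.9 and 111.6 CPM in untreated cells, 101.5, 101.7, 100.3 and 107.2 with AKB, and 120.9, 132, 100.3 and 100.2 with pyruvate. The AKB libraries lay wholly below the untreated ones. The log2 difference was −0.24 ± 0.0892 and was not called (adjusted p = 0.252). It was called with the GC correction (−0.23, adjusted p = 0.0091) and without pyruvate replicates 3 and 4 (−0.24, adjusted p = 0.0132), within a range of 0.0091 to 0.487 over all alternatives. The estimate is the same without those replicates, which are in neither group of this comparison. What changes is the spread that the 3 groups share in the test, and the SE drops from 0.0892 to 0.0493.

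IDH3B (ENSG00000101365, GRCh38 chromosome 20, 2658395 to 2664219, minus strand) measured 84.48, 79.2, 79.39 and 83.72 CPM in untreated cells, 89.37, 76.03, 73.26 and 87.43 with AKB, and 86.28, 118.3, 124.3 and 122.1 with pyruvate. Pyruvate replicates 2, 3 and 4 stood far above the other 9 libraries, while pyruvate 1 lay just above the untreated libraries and among the AKB ones. IDH3B was lower with AKB than with pyruvate by −0.47 ± 0.109 (adjusted p = 0.0445), the only gene on the list called between the 2 acids. That call ended when pyruvate replicates 3 and 4 were left out together (−0.33, adjusted p = 0.127), and when any untreated library, any AKB library, pyruvate 3 or pyruvate 4 was left out alone, with adjusted p values up to 0.122. It also ended with the replicate block (0.0599), on library size alone (0.0516), with no filter (0.0534) and in the 8 libraries of the comparison alone (0.159). Against untreated cells the pyruvate difference was 0.46 ± 0.109 (adjusted p = 0.0511), and 0.32 without replicates 3 and 4 (adjusted p = 0.225).

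IDH3G (ENSG00000067829, GRCh38 chromosome X, 153785766 to 153794523, minus strand) read 40.5, 40.7, 41.65 and 39.87 CPM in untreated cells, 44.75, 42.06, 51.3 and 45.32 with AKB, and 47.25, 47.92, 57.28 and 54.64 with pyruvate. Both treated groups lay wholly above the untreated one. The log2 difference with pyruvate was 0.35 ± 0.0808 (adjusted p = 0.049), and with AKB 0.17 ± 0.081 (adjusted p = 0.39). The pyruvate call ended without replicates 3 and 4 (0.23, adjusted p = 0.185), with the GC correction (0.089, adjusted p = 0.602) and when any untreated library, any AKB library, pyruvate 3 or pyruvate 4 was left out (adjusted p up to 0.15). It also ended on library size alone (0.052), with no filter (0.0635) and in the 8 libraries of the comparison alone (0.147). IDH3G shares 278 exon bases with SSR4 on the opposite strand, and the labels do not say that strand was used in counting, so reads of these bases cannot be told apart. Other genes of the list share exon bases on the opposite strand as well, among them IDH3A (2608 with ACSBG1), PDHA1 (956 with MAP3K15), PC (621 with LRFN4) and PDHX (259 with APIP). SDHD shares 319 exon bases with AP002884.3 on its own strand.

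The 2-oxoglutarate dehydrogenase and succinyl-CoA ligase genes gave no call. OGDH, the E1 component of 2-oxoglutarate dehydrogenase, read 99.08, 103.1, 99.73 and 107.1 CPM in untreated cells, 82.49, 94.8, 97.39 and 98.98 with AKB, and 104.8, 105, 127.7 and 132 with pyruvate. The AKB libraries all lay just below the untreated ones, and pyruvate replicates 3 and 4 lay above every other library. The log2 difference was −0.13 ± 0.0893 with AKB (adjusted p = 0.599) and 0.20 ± 0.0891 with pyruvate (adjusted p = 0.165), and between AKB and pyruvate −0.33 ± 0.0893 (adjusted p = 0.0625). The pyruvate difference against untreated cells was 0.037 without pyruvate replicates 3 and 4 and 0.025 with the GC correction. The difference between the acids was −0.17 without pyruvate replicates 3 and 4 (adjusted p = 0.186, the highest of all alternatives, which began at 0.00546). DLST, the E2 component, differed by −0.031 with AKB and −0.0093 with pyruvate (−0.062 without replicates 3 and 4).

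SUCLG1 is the alpha subunit that both forms of succinyl-CoA ligase share, and SUCLA2 and SUCLG2 are the beta subunits of the ATP-forming and GTP-forming enzymes. Their AKB differences were −0.094, −0.0104 and −0.092 and their pyruvate differences −0.044, −0.19 and −0.17. Without pyruvate replicates 3 and 4 the pyruvate differences were 0.013, −0.011 and −0.083. SUCLA2 stood at 55.3% ± 1.4 of the summed CPM per kb of the beta subunits in untreated cells, 56.7% ± 2.6 with AKB and 54.8% ± 2.4 with pyruvate (SD, n = 4), and the groups overlapped. Which beta subunit is higher depends on the transcript taken. Untreated SUCLA2 and SUCLG2 stood at 24.9 and 20.1 CPM per kb of the principal transcript, and at 16.5 and 20.1 of the longest.

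Succinate dehydrogenase, which is also complex II of the respiratory chain, had 4 genes on the list and no call. SDHD, a membrane anchor, measured 197.8, 182.6, 185.8 and 173 CPM in untreated cells, 171.1, 159.6, 154.5 and 155.5 with AKB, and 169.8, 179.8, 152.6 and 146.3 with pyruvate. The AKB libraries lay wholly below the untreated ones, while the pyruvate libraries overlapped them. The log2 difference with AKB was −0.21 ± 0.0741 (adjusted p = 0.235). It was called with the GC correction (−0.18, adjusted p = 0.0241) and without pyruvate replicates 3 and 4 (−0.21, adjusted p = 0.0258), within a range of 0.0241 to 0.499. SDHC, the other anchor, had a difference of −0.17 with AKB and −0.11 with pyruvate. SDHB, the iron-sulfur subunit, had values of 130.8, 129.1, 127.3 and 137.3 CPM in untreated cells, 141.1, 137.5, 143.1 and 140.1 with AKB, and 138.7, 152.5, 159.5 and 144.9 with pyruvate, so that both treated groups lay wholly above the untreated one by uncalled differences of 0.10 (adjusted p = 0.505) and 0.18 (adjusted p = 0.087).

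SDHA, the flavoprotein that oxidises succinate, read 215.1, 194.7, 207.7 and 195.3 CPM in untreated cells, 212, 207.1, 195 and 214.9 with AKB, and 197.8, 257.1, 253.5 and 239.7 with pyruvate. Pyruvate 1 lay among the untreated libraries and pyruvate 2, 3 and 4 above them. The log2 difference with pyruvate was 0.22 ± 0.0801 (adjusted p = 0.111). SDHA has near-identical pseudogene copies, so reads may have been divided among them.

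PCK2 (ENSG00000100889, GRCh38 chromosome 14, 24094053 to 24110598, plus strand), the mitochondrial PEP carboxykinase, was the only gene on the list called against untreated cells with both acids. It read 58.36, 59, 58.73 and 58.57 CPM in untreated cells, 35.81, 40.89, 39.47 and 36.06 with AKB, and 28.31, 27.96, 40.76 and 43.53 with pyruvate. All 8 treated libraries lay below all 4 untreated ones. The untreated libraries ran from 58.36 to 59 CPM (964 to 1083 counts), and 4 values this close do not show how steady the level is. The log2 difference was −0.62 ± 0.131 with AKB (adjusted p = 0.0326) and −0.74 ± 0.131 with pyruvate (adjusted p = 0.0206), both from edgeR's quasi-likelihood test, with 95% intervals from −0.91 to −0.34 and from −1.02 to −0.45. Both comparisons use the same 4 untreated libraries. Within the pyruvate group, replicates 1 and 2 averaged 28.13 CPM and replicates 3 and 4 averaged 42.15.

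The fall of PCK2 with pyruvate was −1.06 without replicates 3 and 4 (adjusted p = 1.97e-05) and −1.04 with the GC correction (adjusted p = 9.4e-07), and over all alternatives its adjusted p ran up to 0.117, in the 8 libraries of the comparison alone. With AKB it was −0.75 with the GC correction and −0.62 without those pyruvate replicates, with adjusted p values of 1.89e-05 and 9.64e-05 in a range up to 0.12. The AKB call ended with the replicate block (adjusted p = 0.0567) and when any untreated or any AKB library was left out, and the pyruvate call when untreated 1, 2 or 3 was left out, while the estimates stayed between −0.66 and −0.59 and between −0.84 and −0.63. Between AKB and pyruvate the difference was 0.11 ± 0.132, with a 95% interval from −0.17 to 0.40 (adjusted p = 0.611). PCK2 was lower with pyruvate than with AKB, by 0.435, without pyruvate replicates 3 and 4 (adjusted p = 0.00892, in a range of 0.00791 to 0.95).

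The remaining enzymes around pyruvate and malate were not called. PC, pyruvate carboxylase, read 44.14, 47.56, 48.15 and 47.65 CPM in untreated cells, 47.32, 54.66, 52.88 and 52.48 with AKB, and 48.68, 45.4, 53.34 and 55.24 with pyruvate. Its groups overlapped, with differences of 0.15 ± 0.0753 (adjusted p = 0.453) and 0.11 ± 0.0751 (adjusted p = 0.313), the latter 0.0058 without pyruvate replicates 3 and 4 and −0.14 with the GC correction. ME1, the cytosolic NADP-linked malic enzyme, read 37.14, 33.91, 34.38 and 33.66 CPM in untreated cells, 45.07, 41.32, 40.7 and 38.1 with AKB, and 36.18, 41.13, 26.42 and 23.05 with pyruvate. All AKB values of ME1 lay above the untreated ones. The AKB difference was 0.25 ± 0.149 (adjusted p = 0.527) and was called with the GC correction (adjusted p = 0.0477) and without pyruvate replicates 3 and 4 (adjusted p = 0.0393), in a range of 0.0345 to 0.73. Within pyruvate, ME1 differed 1.56-fold between the pairs, at 38.65 CPM in replicates 1 and 2 and 24.73 in replicates 3 and 4. ME2, the mitochondrial NAD-linked malic enzyme, read 61.06, 58.51, 60.41 and 55.19 CPM in untreated cells, 63.2, 60.46, 63.37 and 58.6 with AKB, and 59.45, 61.45, 47.78 and 43.81 with pyruvate. Its AKB values overlapped the untreated ones and its pyruvate values split by pair.

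**Figure D3:**
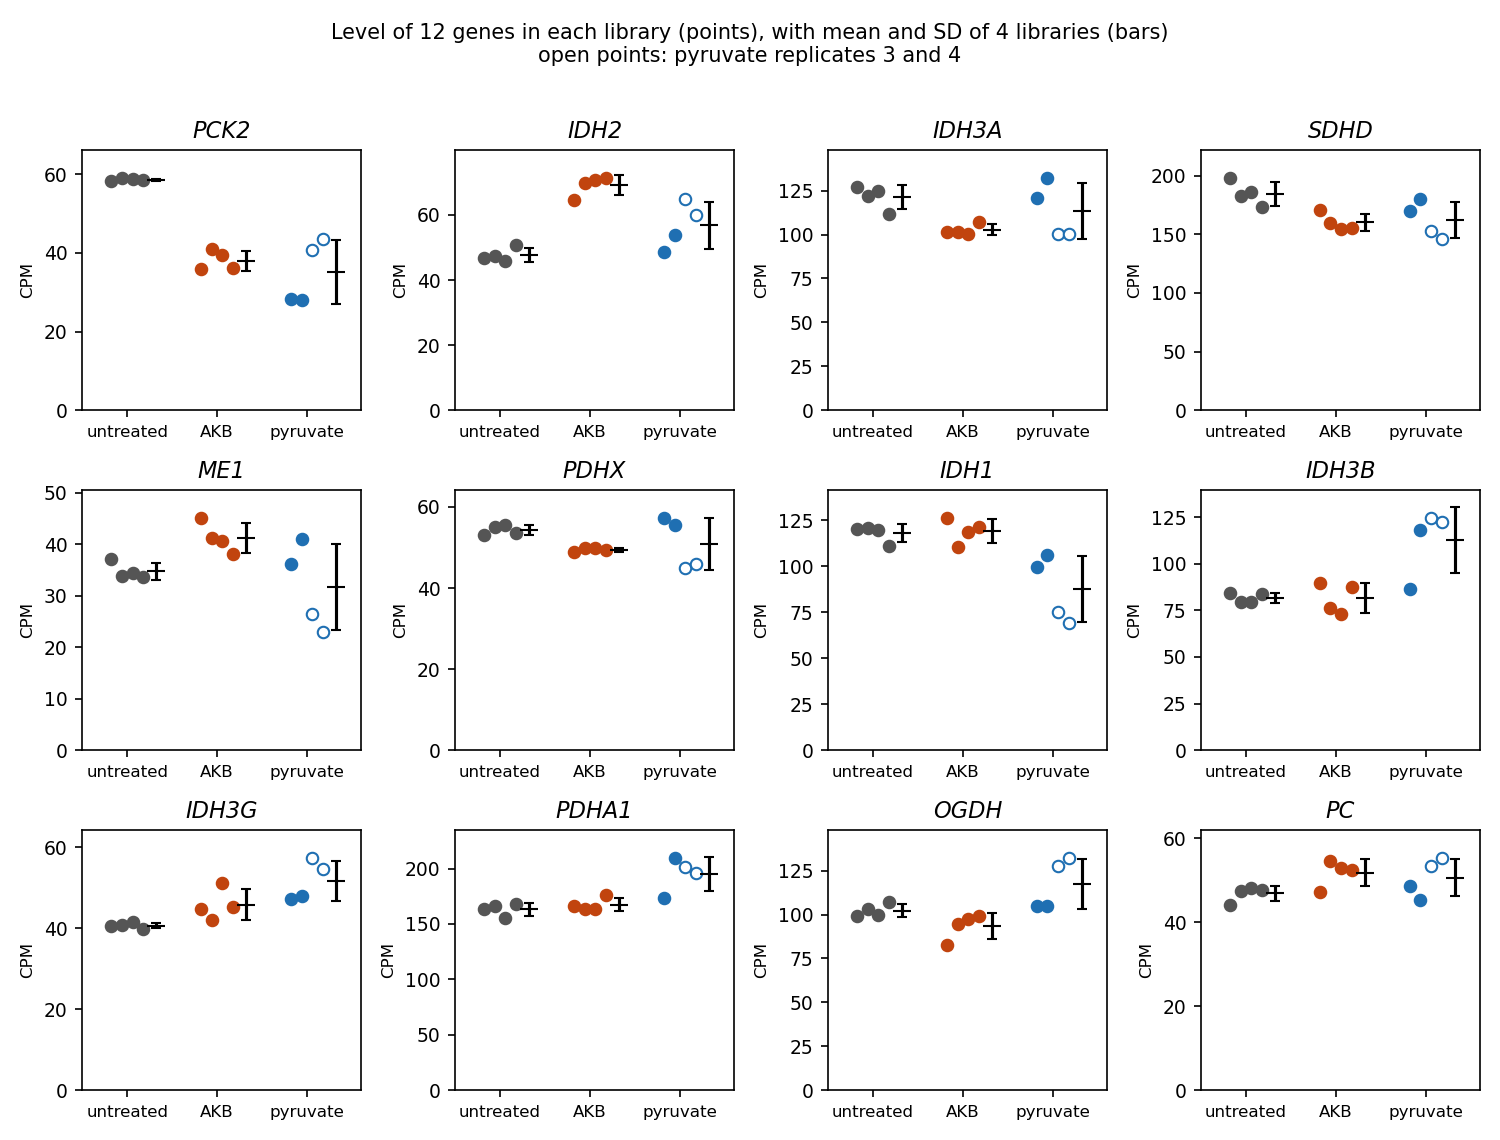
CPM of 12 genes in each library, with the mean and SD of 4 libraries beside each group and pyruvate replicates 3 and 4 as open points. PCK2 sits at 58.36 to 59 CPM in untreated cells and at or below 43.53 in every treated library, IDH2 is highest with AKB, and the open points of ME1, PDHX and OGDH lie away from the filled pyruvate points.

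The split inside the pyruvate group showed in most genes of the list and went with GC content. Both of pyruvate 3 and 4 lay below both of pyruvate 1 and 2 for 17 of the 31 tested genes, above for 9 and neither for 5. The share of all genes ordered in this way was not counted, and an order of 2 libraries against 2 is easily met without a difference. The GC slopes of these libraries were measured over 12053 genes, so the split is not shown to be particular to the list. Among the 23 genes under 50% GC the pair lay below for 16, and among the 8 genes over 50% it lay above for 7, with PDPR as the exception. The GC content of the longest transcript ran from 39.3% (DLD) to 61.6% (PCK2). Across the 31 genes the pyruvate log2 difference against untreated cells had a Pearson r of 0.357 and a Spearman rho of 0.532 with GC content, as a description of genes that share the same 8 libraries. With the GC correction these were −0.269 and 0.0248, and with AKB they were −0.0104 and 0.0454 without any correction.

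**Figure D4:**
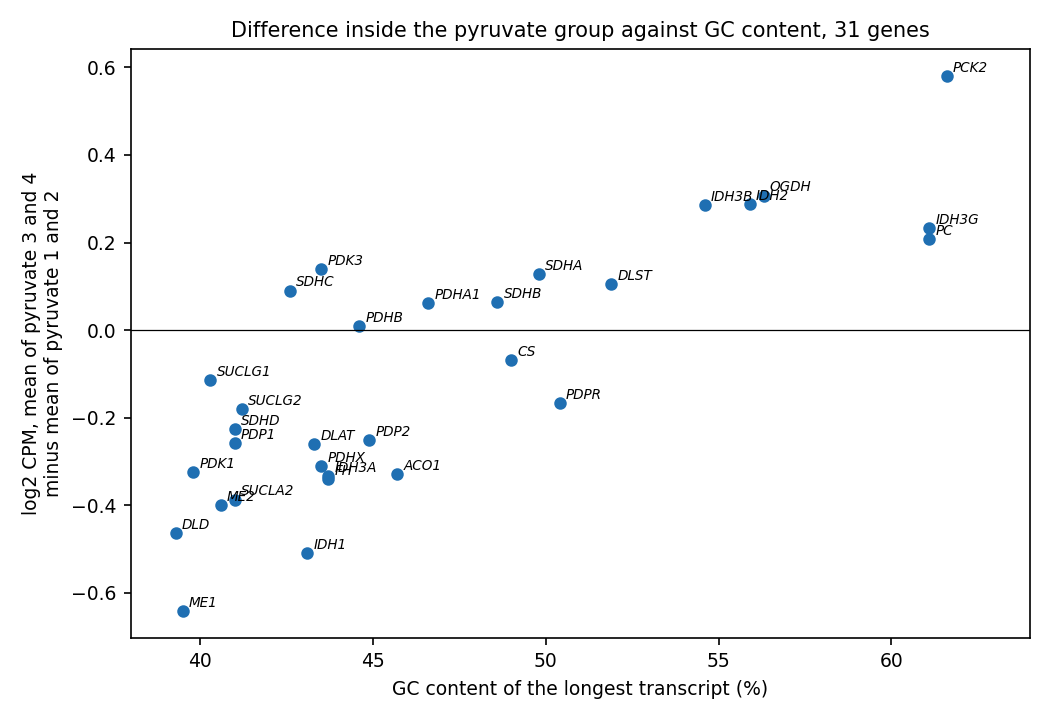
Log2 CPM of pyruvate replicates 3 and 4 minus that of replicates 1 and 2, for the 31 tested genes against the GC content of the longest transcript. ME1 and IDH1 lie lowest at low GC and PCK2 highest at 61.6% GC, with IDH2, IDH3B, OGDH, IDH3G and PC also above 0.

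The number of called genes on the list moved with how this split was handled. With the GC correction 6 of 31 genes were called with AKB, against 8.73% of all genes: IDH2 and ME1 higher, and PCK2, IDH3A, SDHD and OGDH lower. Without pyruvate replicates 3 and 4 it was also 6, against 9.17%: IDH2 and ME1 higher, and PCK2, IDH3A, SDHD and PDHX lower. For pyruvate the same settings gave 5 calls (PDHA1, IDH3B and SDHB higher, IDH1 and PCK2 lower, against 9.21% of all genes) and 1 call (PCK2 lower, against 0.71%). PCK2 was thus the single gene on the list called lower with pyruvate under the full set of libraries, the GC correction and the smaller set.

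AKB and pyruvate were given at the same dose and for the same time, so they can be compared directly. Over the 31 genes the log2 difference, AKB minus pyruvate, ran from −0.47 (IDH3B) to 0.45 (IDH1), with a median of 0.041 against 0.025 over all genes. That median was −0.034 without pyruvate replicates 3 and 4 and −0.037 with the GC correction. Besides the called IDH3B, 9 further genes had an unadjusted p under 0.05 by edgeR's quasi-likelihood test. Such values were common among all genes: IDH3G, at an unadjusted p of 0.0497, ranked 3292 of the 13598 tested. After IDH3B, IDH1 (0.45, adjusted p = 0.0605), OGDH (−0.33) and PDHA1 (−0.22, adjusted p = 0.0755) came nearest to the threshold for a call. The IDH1 difference was 0.21 without pyruvate replicates 3 and 4 (adjusted p = 0.0743). The AKB and pyruvate libraries did not overlap for IDH1 (AKB higher), CS and OGDH (AKB lower), where 7.08% and 4.54% of all genes were separated in these directions. Without pyruvate replicates 3 and 4 the called genes were IDH2 and PCK2 (higher with AKB) and IDH3A and PDHX (lower), against 4.36% of all genes. With the GC correction 10 of 31 were called, against 14.8% of all genes: IDH1, IDH2 and PCK2 higher with AKB, and PDHA1, PDHX, IDH3A, IDH3B, OGDH, SUCLG1 and SDHD lower. For the other 21 genes edgeR's quasi-likelihood test called no difference with all libraries, without the pair or with the GC correction. Their 95% intervals on the log2 scale differed in width, from −0.15 to 0.077 for PDHB and −0.15 to 0.10 for DLST to −0.18 to 0.79 for PDP1. PDK1, PDK3, ME1, SDHA and IDH3G were among these genes with an unadjusted p under 0.05, and the interval of PDK3 ran from 0.059 to 0.77. A difference in these genes is therefore not excluded. Among the same 21 genes, DESeq2's Wald test called CS lower with AKB (adjusted p = 0.0468), where it called 12.2% of all genes.

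A second list, of which 37 gene symbols are described here, held the mitochondrial pyruvate carrier, lipoylation and assembly factors, malate dehydrogenases, carriers and transaminases. Of the 34 of these that could be tested, 0 were called with AKB by edgeR's quasi-likelihood test, against 1.97% of all genes (0 by DESeq2's Wald test, against 3.8%). By edgeR's test 5 had an unadjusted p under 0.05 (4 higher, 1 lower). For scale, IDH3G of the first list, at an unadjusted p of 0.0535 with AKB, ranked 1865 of all 13598 genes. The log2 differences of the 34 with AKB ran from −0.39 to 1.55, with a median of −0.065. The highest was PCK1, near the floor at 1.3 ± 0.441 CPM against 0.4327 ± 0.29 in untreated cells (SD, n = 4). Its difference had an SE of 0.535 and was not called (adjusted p = 0.214 by edgeR's test). With pyruvate 9 of the 34 had an unadjusted p under 0.05 (3 higher, 6 lower). There OGDH of the first list, at 0.0447, ranked 3675 of all genes, so such values were common. The differences of the 34 with pyruvate ran from −0.41 to 0.42, and the median was −0.12. Without pyruvate replicates 3 and 4, 4 had an unadjusted p under 0.05 (1 higher, 3 lower), with no share of all genes at hand, and the median was −0.081. DESeq2 called 4 of the 31 to which it gave an adjusted p with pyruvate, against 15.2% of all genes. With the GC correction SLC25A13, a mitochondrial aspartate-glutamate carrier, was the 1 gene of the 34 called with AKB (adjusted p = 0.0394), at 119.8 ± 3.36 CPM against 133.4 ± 2.82 in untreated cells (SD, n = 4). The 1 gene called without pyruvate replicates 3 and 4 was ACLY, the ATP citrate lyase that makes cytosolic acetyl-CoA, at 492 ± 25.1 CPM with AKB against 441.5 ± 4 (adjusted p = 0.0398). PCK1, SLC25A13 and ACLY were named after their values were seen.

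Promoter windows, the 250 bases before each start site in RefSeq's GRCh38.p14 annotation, were at hand for 30 of the genes (41 windows). The binding core of nuclear respiratory factor 1 (NRF1), a known activator of nuclear genes for mitochondrial proteins, was searched as GCATGCGC on both strands. It was found in 3 of 41 windows (7.32%), those of SDHB, SDHD and DLD, and in 2.63% of all 35116 windows. The E-box CACGTG was found in 14.6% of the member windows and 6.34% of all. The CEBP-ATF core TGATGNAA, searched because PCK2 is a known ATF4 target, was found in 0 of 41 windows and 3.14% of all, which says only that these letters are not in these windows. For PCK2 the window, from 24094061 to 24094310, lies after the start of the gene in GENCODE 29, at 24094053. The SDHB stretch is shown as the example of an NRF1 core that lies outside any annotated exon, with the core in capitals, and it was chosen after the values were seen. It lies at chr1:17054171-17054282 on the minus strand of GRCh38.p14, and the core begins 200 bases upstream of the RefSeq start.
SDHB: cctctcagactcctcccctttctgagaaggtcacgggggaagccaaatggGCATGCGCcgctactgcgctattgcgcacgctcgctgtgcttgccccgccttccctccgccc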

How the data were processed

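Gene levels came from a table of whole-number estimated counts per gene that the authors deposited. The tools named in the submitters' processing notes are DESeq2 1.26.0, R 3.6.3 and Salmon 1.2.1, with genome build, annotation and settings not given in the sources used here. Libraries were poly(A)-selected, per the labels' protocols. Rounding the expected counts changed 0 values. The authors also deposited 3 comparison tables with, per the file headers, a mean normalised signal (baseMean), a log2 fold change with the SE (also log2), a test statistic (a score), and p-values before and after adjustment.

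Symbols were matched by Ensembl identifier for 16933 of 17786 genes (95.2%). Coordinates, transcript length and GC content came from GENCODE 29 on GRCh38. Genes were filtered by edgeR's filterByExpr (minimum count 10), scaled by TMM and fitted with edgeR 4.0.16 (quasi-likelihood, all 12 libraries, 1 term per group, in R 4.3.3), adjusting over 13598 genes. Each SE was obtained as the absolute log2 fold change divided by the root of F. The script was tested on simulated data. The GC correction is an offset per library, a smoothing spline with 5 degrees of freedom of log2 CPM on GC content. Other alternatives were DESeq2's size factors, library size alone, no filter, DESeq2 1.42.0's Wald test, a replicate block, the 8 libraries of a comparison alone, and leaving out pyruvate replicates 3 and 4 or each library in turn.

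The members, lists, rules and alternatives were chosen with earlier results of these data known. Full values are given for genes called in any comparison, for genes called in the same direction both with the GC correction and without pyruvate replicates 3 and 4, and for 15 genes fixed by role. SDHB lies outside this rule and was chosen after its values were seen. Whether replicate numbers pair the libraries was not settled. The deviations of same-numbered libraries correlated at −0.0996 to 0.202, with 3 of 12 pairs above 0.1, and those of other pairs at −0.244 to 0.185. These ranges overlap, which does not exclude a shared culture or day, so the block was run as an alternative. Some items of the marker and pathway lists are not reported here.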

Additional observations from a re-analysis of the deposited data

Results flagged for a closer look

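Within groups, 93 sets of 4 libraries (31 genes in 3 groups) were checked for a single library far from the others by Dixon's ratio, and 6 passed it, where chance gives about 1 in 20. In pyruvate 1, IDH3B was at 86.28 CPM while the other pyruvate libraries ran from 118.3 to 124.3. IDH1 was at 111.1 CPM in untreated 4, against 119.9 to 121 in the other untreated libraries. CS was lowest in untreated 3 at 415.8 CPM (others 435.8 to 439.8) and in AKB 3 at 413.3 (others 428.8 to 431.2). DLST was highest in untreated 1 at 101.3 CPM (others 95.28 to 96.2), and PC lowest in the same library at 44.14 (others 47.56 to 48.15).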

How the results depend on the processing

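The count of called genes on the list with AKB (2) was 1 with the replicate block, 5 in the 8 libraries alone, 6 with the GC correction and 6 without pyruvate replicates 3 and 4, and 1 to 2 with each library left out. With pyruvate (2) it was 1 on library size alone, 1 with no filter, 8 by DESeq2's Wald test, 0 in the 8 libraries alone, 5 with the GC correction and 1 without pyruvate replicates 3 and 4, and 0 to 10 with each library left out. Between AKB and pyruvate (1) it was 0, 0, 6, 0, 10 and 4 in the same order, and 0 to 6. The highest counts came without pyruvate 1 (9 with pyruvate, 6 between the acids) and without pyruvate 2 (10 and 5), where 19.1% and 12.8%, and 26.1% and 15.3%, of all genes were called. The replicate block gave 1, 2 and 1 calls, ended the PCK2 call with AKB (adjusted p = 0.0567), and between the acids called OGDH in place of IDH3B. Of all genes, library size alone called 1.99%, 1.85% and 2.97% in the 3 comparisons, no filter 1.1%, 0.855% and 1.2%, the GC correction 8.73%, 9.21% and 14.8%, and leaving out pyruvate 3 and 4 called 9.17%, 0.71% and 4.36%. The block called 1.16%, 4.16% and 2.62%, DESeq2's Wald test 3.8%, 15.2% and 12.2%, and the fit to 8 libraries alone 10.1%, 0.12% and 0.0449%. Of 12 comparisons of a treated library with another group, 4 gave the best correlation with its own number.

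Among 54 single-gene results, 10 changed sign in an alternative other than leaving out 1 library, with 15 sign changes in all, and none of these results was called with all libraries. With the GC correction the pyruvate differences became 0.0106 for PDHX, 0.0299 for PDK3, 0.000944 for IDH3A, −0.144 for PC, 0.0395 for ME1 and 0.0193 for ME2, and FH became −0.0487 between the acids. Without pyruvate replicates 3 and 4 the pyruvate differences became 0.0524 for PDHX, 0.0593 for IDH3A, 0.0241 for FH, 0.153 for ME1 and 0.0405 for ME2, and FH became −0.121 between the acids. On library size alone IDH3B became 0.0109 with AKB and SDHD 0.00364 between the acids. Leaving out each library, the range crossed 0 with AKB for PDK1 (−0.00909 to 0.061), IDH1 (−0.0171 to 0.0455) and IDH3B (−0.0463 to 0.0483), and between the acids for PDHX (−0.108 to 0.0138), SDHD (−0.0764 to 0.0374), FH (−0.0442 to 0.114) and PC (−0.0153 to 0.0673). The cause of these changes was not tested.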

Other observations

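The authors' deposited tables, in which the fold changes are here turned to treated over untreated, called 4 of the genes with AKB (IDH2 higher; PCK2, SDHC and SDHD lower) where they called 4.9% of all genes with an adjusted p. With pyruvate the authors' deposited table called 6 (PDHA1 and IDH3B higher; IDH1, PCK2, SDHC and PDP2 lower) against 12% of all genes. Between the acids the authors' deposited table called 3 higher with AKB (PDP2, IDH1 and IDH2). It called 6 lower (PDHA1, CS, IDH3A, IDH3B, OGDH and SDHD), where 10% of all genes were called in either direction. For PCK2 the authors' deposited log2 fold changes were −0.55 with AKB and −0.71 with pyruvate, and for IDH2 with AKB 0.53.

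The authors' deposited fold changes and a DESeq2 fit to the deposited counts differed by more than 0.2 on the log2 scale for 0 genes of the list with AKB, 5 with pyruvate and 4 between the acids. For SDHC with pyruvate the authors' deposited value was −0.49 and the fit to the counts −0.099. For PDK3 with pyruvate the authors' deposited value was 0.37 and the fit −0.082, and for PDP1 0.30 and −0.048. Across 13598 genes, which are not independent replicates, the authors' deposited values and the fit had a Pearson r of 0.943 with AKB and 0.92 with pyruvate. The cause of the differences was not tested.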
